A study of Mus musculus with 128 samples.

Results

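Cytosolic ribosomal protein genes were taken from the count table by name and type: protein-coding genes whose symbol is Rpl or Rps with a number, and Rplp0, Rplp1, Rplp2 and Rpsa. The rule found 84 of 35275 genes, 51 of them proteins of the large ribosomal subunit and 33 of the small. It leaves out ribosomal protein genes named otherwise, such as Fau, Rpl36al and Rack1. Of the 84 genes, 82 passed the filter on low counts that left 16886 genes for testing. Rpl10l, a testis paralog of Rpl10, had no read in any library, and Rpl39l, a paralog of Rpl39, had none in 75, and neither was tested.

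The series followed gene expression in the liver of male mice after a meal, in 2 inbred strains, C57BL6/J and BALB/c, all aged 8 weeks. Mice had learned over 1 week to eat in a daily window, and went without food for 21 h before they received chow with a drink of water or of 20% glucose, sucrose or fructose. Livers were sampled at 0 h, before the food, and at 3, 6 and 12 h, so the later times also differ from 0 h in time of day. Strain, drink and time form 26 groups, 24 with 5 libraries and 2 with 4 (BALB/c on glucose and on fructose at 12 h). The labels name no transgene and no induced deletion. The 10 hepatocyte marker genes examined, albumin among them, were all matched and summed to 52100 to 146000 CPM per library, where CPM are counts scaled to a common library size.

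Ribosomal proteins assemble with ribosomal RNA into the subunits that make all cellular protein, in nearly equal numbers, and their genes are among the most highly expressed in liver. The messages of most of them begin with a C and a run of pyrimidines, the terminal oligopyrimidine (TOP) tract. Through this tract the nutrient-sensing kinase complex mTORC1 controls how often the message is translated, so feeding is known to act on these genes more through translation than through message level. RNA sequencing measures the message level only.

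Total counts ran from 18541545 to 43118895 per library, and mitochondrially encoded genes took 3.03% to 14.13% of them. In bulk liver, fewer cells of a type and less RNA per cell cannot be told apart. The labels do not say outright that each library is a separate mouse, so a p-value reflects only how far these libraries spread. On 200 genes that change with feeding time and include no ribosomal protein gene, 2 libraries lay nearest to another time than their own: C57BL6/J on water at 0 h replicate 2 lay nearest to 3 h, and BALB/c on fructose at 6 h replicate 4 nearest to 12 h. Each count of called genes given here was also made without them, and is given where it differed. A letter a ends the names of 34 libraries, and what it stands for is unknown here.

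The ribosomal protein genes took 1.76% to 4.39% of all counts, with a median of 3.09%. Per length, on the FPKM scale that the authors deposited, which divides fragments by gene length and library size, the median gene stood at 362 FPKM. The highest were Rplp1 at a median of 1729 FPKM over libraries, a protein of the stalk that recruits translation factors, and Rps27 at 1615 FPKM. Next came Rpl36 at 1193, Rps29 at 1103, Rps21 at 794, Rps15 at 791, Rps12 at 787, Rps14 at 785, Rpl41 at 779 and Rpl10 at 777 FPKM. Both subunits are represented among these 10 genes. The other stalk genes were lower on the same scale, with Rplp2 at 348 and Rplp0, the stalk's base, at 323 FPKM. Rps6, whose protein is a substrate of the kinase under mTORC1, stood at 242 FPKM and Rps27a, made as a fusion with ubiquitin, at 433 FPKM. Rpl5 and Rpl11, which carry the smallest ribosomal RNA into the large subunit and can bind Mdm2, the inhibitor of p53, stood at 144 and 564 FPKM.

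**Figure D1:**
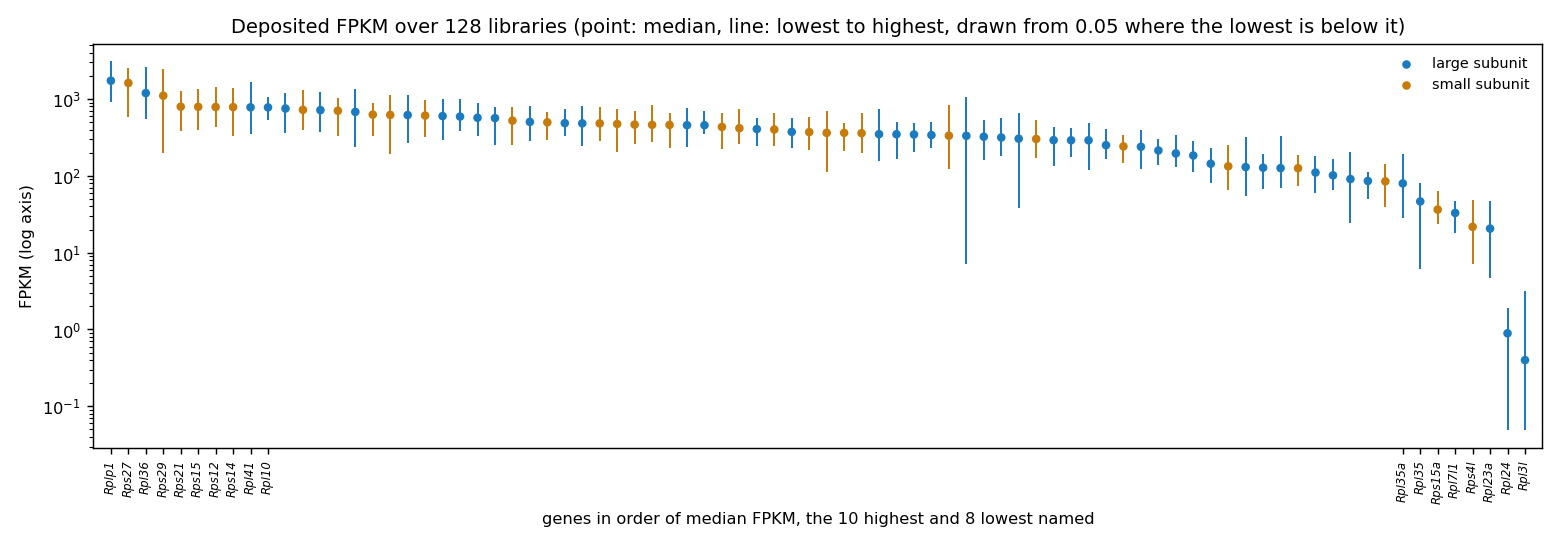
Median FPKM over all libraries (points) with the lowest to highest value (lines) for the cytosolic ribosomal protein genes, on a log axis, in order of level and coloured by subunit, with the ends of the order named. Genes with a median of 0 are not drawn. Genes in the middle of the order lie near 362 FPKM, and a short tail below 50 FPKM holds Rpl35, Rps15a, Rpl7l1, Rps4l, Rpl23a, Rpl24 and Rpl3l.

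At the low end stood Rpl3l, the form of Rpl3 known from heart and skeletal muscle, at a median of 0.400 FPKM. Rpl24 at 0.892 FPKM lay there too, although its protein is a part of every large subunit. Rpl24 had a median of 14 counts, and it lies within Gm28037, an annotated gene on the same strand that is listed at 0 in all libraries. Rpl23a at 20.6, Rps4l at 21.7, Rpl7l1 at 32.9, Rps15a at 36.4, Rpl35 at 46.4 and Rpl35a at 79.6 FPKM complete the 10 lowest with Rpl10l and Rpl39l, both listed at a median of 0. Rps15a was divided by a deposited gene length of 5130 bases, against 393 bases of coding sequence. Of the 84 genes, 21 overlap another gene, 4 on the same strand and 17 on the other, and the sources used here do not say if strand was used in counting. Levels of these genes are therefore uncertain, as are those of genes with near-identical copies elsewhere in the genome. The part of overlap or copies in these low levels was not tested.

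The TOP tract can be looked for where the message starts. RefSeq start sites of the GRCm38.p6 assembly matched 63 of the 84 genes, and the motif searched was a C at the first base followed by 4 bases that are each C or T, read on the gene's strand only. It was found in 12 of 63 (19.0%), against 673 of 27025 (2.49%) of all RefSeq promoters in the table. None of 69 mitochondrial ribosomal protein genes and none of 25 ribosome biogenesis genes held it (0.0% each), while 2 of 10 translation factors known as TOP genes did (20.0%). The annotated start need not be the base where transcription begins, so these shares describe the annotation. The windows below run from 20 bases before the start to the tenth base of the message, for genes that carry the results. Capitals mark the run of C and T that opens at the start.
Rps6, chr4:86857358-86857387, minus strand: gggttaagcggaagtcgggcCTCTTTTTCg
Rpl15, chr14:18270977-18271006, minus strand: ggattgtgggagaaagccttCTTCCTTTCC
Rps27, chr3:90213639-90213668, minus strand: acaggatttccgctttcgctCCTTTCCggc
Rps15a, chr7:118116138-118116167, minus strand: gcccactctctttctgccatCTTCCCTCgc
Rpl7l1, chr17:46782647-46782676, minus strand: gcccggtgaggctgcgcaagCgcagtagct
Rpl22l1, chr3:28805488-28805517, plus strand: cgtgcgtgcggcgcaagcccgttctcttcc
Rpl3l, chr17:24727806-24727835, plus strand: cagctgagtgttctagctctgtcatttgac
Rpl12, chr2:32961692-32961721, plus strand: gcgtgggcggagcaggatccgtcttttcgg
Rps26, chr10:128626497-128626526, minus strand: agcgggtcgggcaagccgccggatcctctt
The first 4 hold the motif at the annotated start, and the last 5 do not. In the windows of Rpl22l1, Rpl12 and Rps26 a run of pyrimidines stands a few bases into the message instead.

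Summed over all 84 genes, the level ran from 16548 to 43097 CPM per library, with a median of 30154. C57BL6/J on water summed to 30129 ± 4872 CPM at 0 h (SD, n = 5), 33526 ± 4478 at 3 h, 37600 ± 3134 at 6 h and 31454 ± 4689 at 12 h. BALB/c on water gave 30053 ± 5638, 26386 ± 6876, 30687 ± 3385 and 27845 ± 5864 CPM at the same times. The libraries within most groups therefore spread as widely as the group means, and the highest group was C57BL6/J on glucose at 3 h with 37827 ± 2514 CPM. The ratio of summed large to small subunit CPM was steadier, at 1.257 to 1.432, with a median of 1.385 in C57BL6/J and 1.336 in BALB/c.

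**Figure D2:**
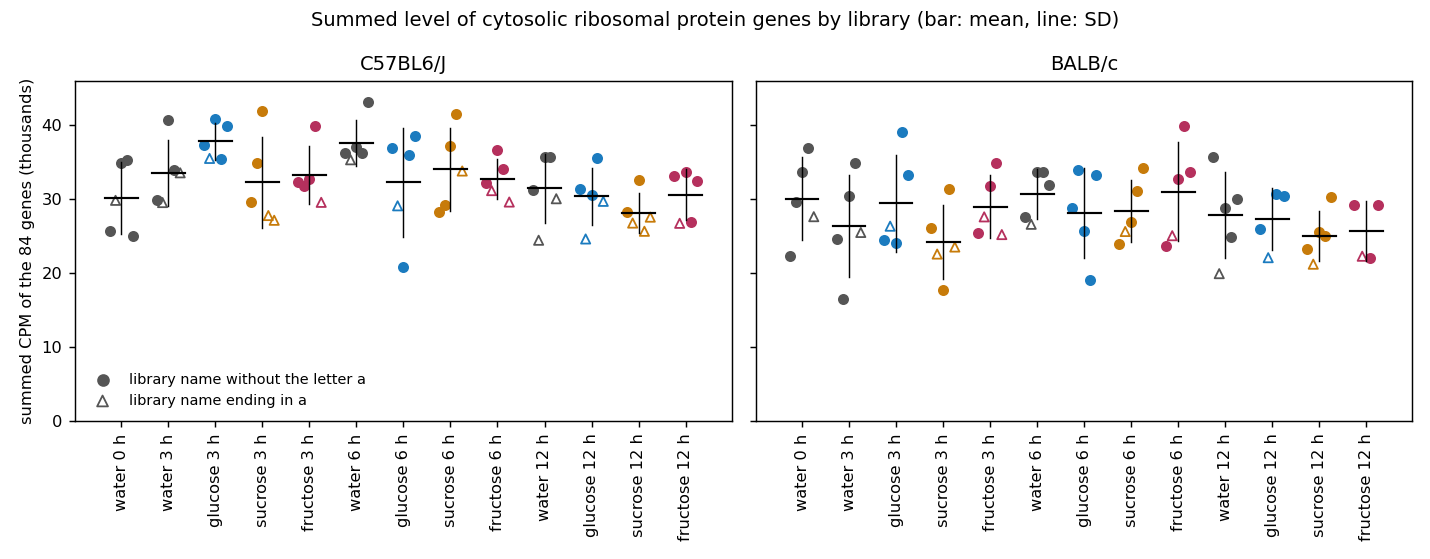
Summed CPM of the ribosomal protein genes in each library (points), by strain, drink and time, with bars for the mean, lines for the SD and open triangles for libraries whose name ends in the letter a. Values run from 16548 to 43097 CPM, and most groups overlap their neighbours.

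Most ribosomal protein genes varied together between libraries of the same group. As a description across all libraries, after subtracting each group's mean, the correlation of a gene with the mean of the others had a median of 0.85 over 82 genes and was above 0.8 for 56. The points of each correlation share library and depth. For 14 genes it was under 0.5: Rps26 at 0.49, Rpl10 and Rpl21 at 0.48, Rplp0 and Rpl23a at 0.42, Rps27 at 0.41, Rps4l and Rps3 at 0.34, Rpl9 at 0.32, Rpl24 at 0.27, Rpl15 at 0.15, Rpl3l at 0.11, Rps6 at 0.09 and Rpl7l1 at -0.22. Rpl7l1 is a paralog of Rpl7 whose product is known from ribosome assembly in the nucleolus rather than from the finished ribosome.

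The summed level also differed with the letter in the library name. In 25 of 25 groups that hold both kinds, libraries with the letter had the lower mean summed CPM. The gap was small in some, with 33816 against 34075 CPM in C57BL6/J on sucrose at 6 h. The lowest sum of all, 16548 CPM in BALB/c on water at 3 h, belongs to a library without the letter. The part of the letter in the correlations above was not tested. With the letter as a factor in the edgeR model, 48 of 82 genes were lower (58.5%) and 6 higher in such libraries, against 4319 of 16886 genes lower (25.6%) and 4459 higher. Among other genes no longer than the median ribosomal protein gene, at 932.5 bases, 754 of 1757 were lower (42.9%). The median log2 difference was -0.20 for the ribosomal protein genes, -0.25 for these other short genes and -0.01 over all genes. The median difference of the ribosomal protein genes, which include longer ones, was thus no larger in size than that of these short genes. The share of genes that were lower was larger among the ribosomal protein genes. The part of gene length was not tested. Rpl35, at the rim of the exit tunnel through which new protein leaves, had a lowest, median and highest level of 6.08, 9.10 and 24.6 CPM in the 34 libraries with the letter. In the 94 without it, Rpl35 stood at 6.31, 48.5 and 81.0 CPM, a log2 difference of -2.29 ± 0.12 (SE) with an adjusted p of 2.97e-32. Rpl23a, its neighbour at the tunnel, went from medians of 14.4 to 4.21 CPM, a log2 difference of -1.58 ± 0.15 (adjusted p = 1.52e-15). Ranges of both genes overlapped, so some libraries without the letter were as low. Rpl7l1 was among the 6 higher genes, at 0.22 ± 0.04 (adjusted p = 3.13e-06). No library of replicates 1 and 3 has the letter, so letter and replicate number cannot be fully told apart. All comparisons were repeated with the letter as a factor and in the 94 libraries without it.

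In mice on water, few ribosomal protein genes differed from 0 h at 3 h, and 13 were higher at 6 h. At 3 h 2 of 82 rose and 1 fell against 0 h (25.4% of all 16886 genes were called, at an edgeR adjusted p under 0.05), and the median log2 fold change was -0.03, beside -0.01 over all genes. At 6 h 13 rose and 0 fell, 8 of the large and 5 of the small subunit, against 13.9% of all genes called higher and 14.9% lower (28.8% in either direction). The 13 of 82 (15.9%) are thus close to the background share. A positive log2 fold change was found in 79 of 82, with a median of 0.18, while the median over all genes lay within 0.01 of 0. These genes vary together between libraries, so the 79 are not separate observations, and leaving out 1 replicate number gave medians of 0.09 to 0.25. All these values are means over both strains. The mean summed CPM went from 30129 at 0 h to 33526 at 3 h and 37600 at 6 h in C57BL6/J. In BALB/c it went from 30053 to 26386 and 30687. The difference between strains in these changes called 0 genes at 3 h and 0 at 6 h. By 12 h Rpl3l alone was called, as lower (9.30% of all genes were called lower, 8.31% higher and 17.6% in either direction), and the median was back at -0.04.

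**Figure D3:**
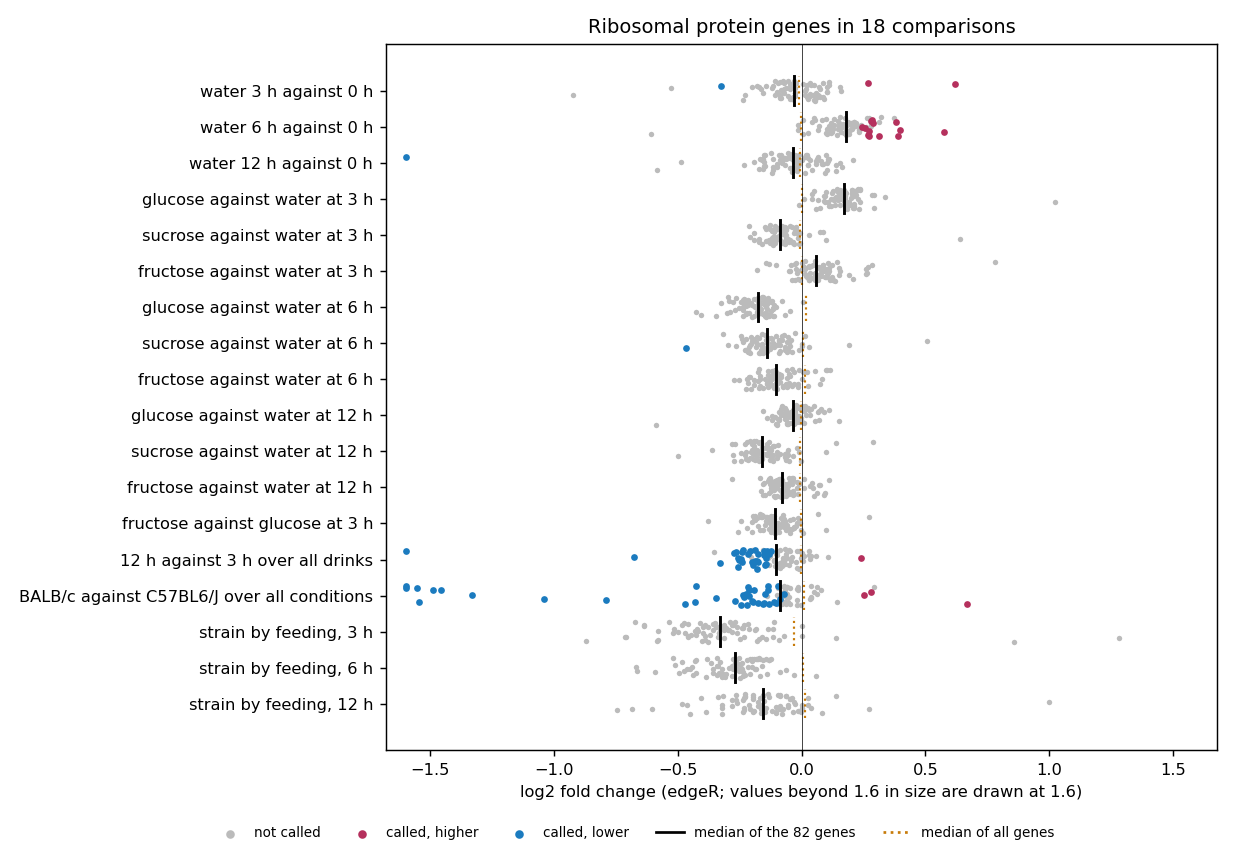
Log2 fold change of each tested ribosomal protein gene (points) in each comparison, with called genes coloured, a solid line for the median of the 82 genes and a dotted one for that of all genes; values beyond 1.6 in size are drawn at 1.6. Values at 6 h on water lie mostly above 0, with a median of 0.18, and sugar against water at 6 h mostly below it.

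Rpl7l1 rose most. In C57BL6/J its 5 libraries at 0 h stood at 52.8, 55.5, 60.7, 71.2 and 113 CPM, and those at 3 h at 62.6, 107, 110, 117 and 121 CPM. In BALB/c the values were 51.7, 53.4, 70.9, 73.7 and 77.4 CPM at 0 h, and 96.2, 96.2, 104, 115 and 116 CPM at 3 h. The BALB/c groups did not overlap, while in C57BL6/J 2 libraries at 0 h and 3 at 3 h lay within the range of the other time. The value of 113 CPM belongs to the library at 0 h that lay nearest to 3 h by its other genes. Over both strains the log2 fold change was 0.62 ± 0.10 (SE, adjusted p = 4.3e-07), in 9 of 10 libraries. Without that library and the other one placed nearest to another time it was 0.72 (adjusted p = 1.45e-09). At 6 h Rpl7l1 stood at 87.7 to 122 CPM in C57BL6/J and 83.7 to 109 CPM in BALB/c, a log2 fold change of 0.57 ± 0.10 (adjusted p = 1.96e-06) in 10 of 10 libraries. By 12 h it had returned to 48.4 to 64.0 CPM in C57BL6/J and 56.6 to 67.2 CPM in BALB/c, inside the range at 0 h save for 2 C57BL6/J libraries just under it.

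Of the genes whose protein sits where the message leaves the small subunit (Rps26, Rps28, Rpsa, Rps21 and Rps14), Rps26 alone was called, at 3 h and at 6 h. Its C57BL6/J libraries stood at 162, 189, 248, 263 and 293 CPM at 0 h and 296, 324, 332, 378 and 394 CPM at 6 h. Its BALB/c libraries stood at 191, 241, 276, 280 and 293 CPM at 0 h and 264, 271, 303, 320 and 332 CPM at 6 h. The C57BL6/J groups did not overlap and the BALB/c groups did. The log2 fold change was 0.40 ± 0.10 (adjusted p = 0.00104, 10 of 10 libraries) at 6 h and 0.27 ± 0.10 (adjusted p = 0.0378, 8 of 10) at 3 h. The call at 3 h was lost in 5 of 14 alternative analyses, with an adjusted p of 0.449 without replicate 5. Rps28 at 6 h had a log2 fold change of 0.01, Rpsa of 0.15, Rps21 of 0.18 and Rps14 of 0.12, none called.

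In the large subunit Rpl15 and Rpl12 rose most at 6 h after Rpl7l1. Rpl15, a core protein close to the subunit's RNA, stood at 154, 183, 184, 202 and 209 CPM at 0 h in C57BL6/J and at 208, 211, 234, 256 and 348 CPM at 6 h. In BALB/c it stood at 154, 156, 166, 200 and 211 CPM, and then at 186, 205, 228, 239 and 268 CPM. The ranges met at their edges in C57BL6/J, and in BALB/c 2 libraries of each time lay within the range of the other. The log2 fold change was 0.39 ± 0.10 (adjusted p = 0.000922, 10 of 10 libraries). Rpl12, at the foot of the stalk, had 250 to 402 CPM at 0 h and 437 to 630 CPM at 6 h in C57BL6/J, with no overlap. Its BALB/c ranges of 267 to 429 and 362 to 494 CPM overlapped, and over both strains Rpl12 rose by 0.38 ± 0.12 (log2, adjusted p = 0.00813). Rps7, a small subunit protein, rose by 0.31 ± 0.10 (adjusted p = 0.0128). Without replicate 5 the adjusted p was 0.207 for Rpl12 and 0.264 for Rps7, and the number of genes called at 6 h fell from 13 to 3.

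The other genes called at 6 h were Rpl21, Rpl7a, Rpl27a, Rpl29, Rps25, Rps15a, Rps13 and Rpl10, with log2 fold changes of 0.24 to 0.29. The other stalk genes were not called: Rplp1 had 0.18 (adjusted p = 0.389), Rplp0 0.12 and Rplp2 -0.01. Rps6 stood at 237 to 328 CPM at 0 h and 294 to 407 CPM at 6 h in C57BL6/J, and at 249 to 337 and 240 to 355 CPM in BALB/c. These ranges overlapped, and the log2 fold change of Rps6 was 0.10 (adjusted p = 0.551). Rpl5 gave 0.00, Rpl11 0.32 (adjusted p = 0.118) and Rps27a 0.20, none called.

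**Figure D4:**
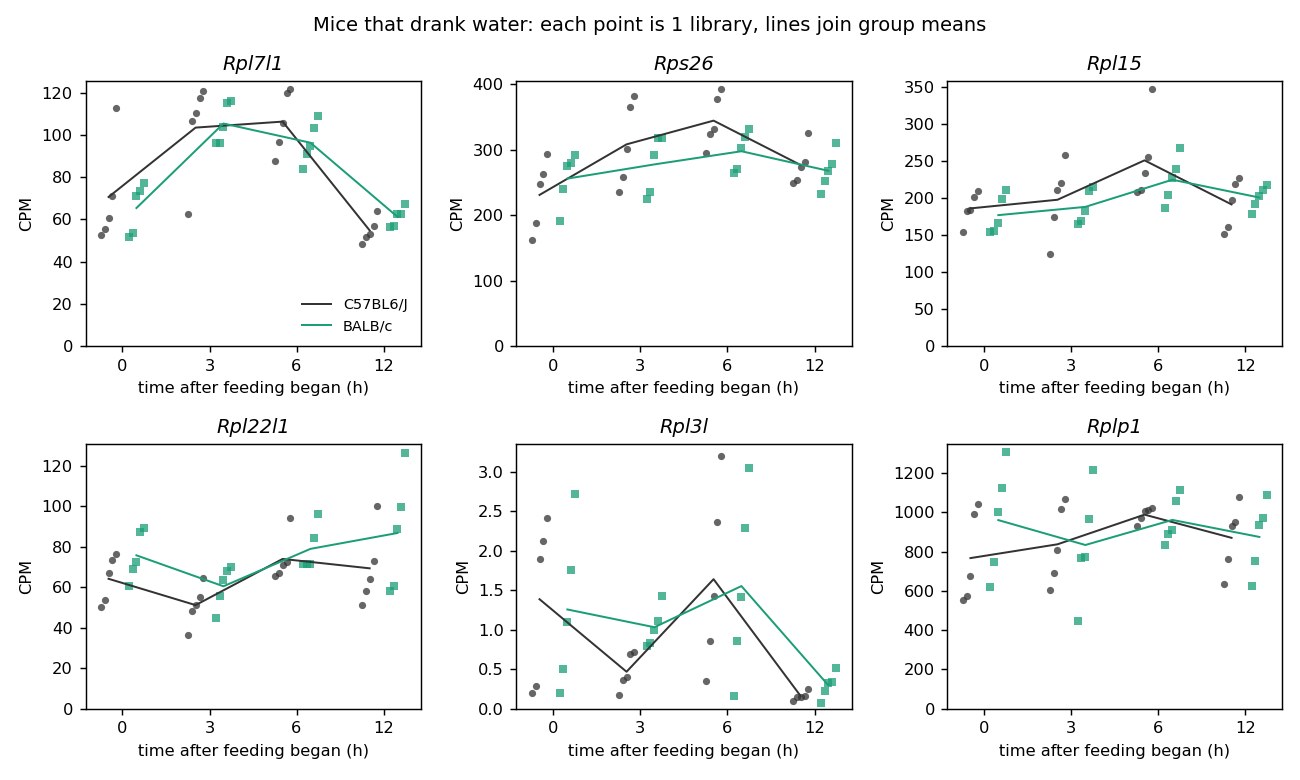
CPM of single ribosomal protein genes in each library on water (points) at 0, 3, 6 and 12 h, by strain, with lines through the group means and the times evenly spaced. Rpl7l1 is high at 3 and 6 h, between 62.6 and 122 CPM in C57BL6/J, and low again at 12 h.

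Among the paralogs, Rpl22l1 was called at 3 h, as lower. Rpl22l1, a paralog of the tunnel protein gene Rpl22, stood at 50.3, 53.6, 66.9, 73.6 and 76.6 CPM at 0 h and at 36.6, 48.3, 51.3, 55.0 and 64.8 CPM at 3 h in C57BL6/J. In BALB/c it stood at 60.8, 69.1, 72.4, 87.2 and 89.5 CPM, and then at 45.03, 55.6, 63.6, 68.3 and 70.1 CPM. Both strains overlapped between times, and the fall of Rpl22l1 by 0.33 ± 0.13 on the log2 scale passed the threshold narrowly (adjusted p = 0.0456, 9 of 10 libraries). That call was lost in 8 of 14 alternative analyses, where the adjusted p reached 0.157. Of the parents Rpl3, Rpl7, Rpl10, Rpl22, Rpl39, Rps4x and Rps27, Rpl10 alone was called on water, at 6 h. Differences between paralog and parent were not tested.

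Rpl3l was called lower at 12 h, at very low levels. In C57BL6/J it gave 0.204, 0.293, 1.90, 2.12 and 2.42 CPM at 0 h and 0.0990, 0.149, 0.152, 0.165 and 0.246 CPM at 12 h. In BALB/c it gave 0.202, 0.508, 1.097, 1.76 and 2.72 CPM, and then 0.0710, 0.224, 0.328, 0.340 and 0.515 CPM. Ranges overlapped in both strains, and the log2 fold change was -2.58 ± 0.61 (adjusted p = 0.000947, 10 of 10 libraries). Skeletal muscle markers moved with it. The 10 markers, all matched and 1 of them at a median of 0, summed to a median of 196 CPM at 0 h (1.27 to 321, n = 10) and 1.98 CPM at 12 h over all drinks (0.776 to 104, n = 38). The part of muscle transcripts in the value of Rpl3l was not tested.

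Other gene groups of the ribosome showed calls at the same times. Of 76 tested mitochondrial ribosomal protein genes, which build the separate ribosome inside mitochondria, 19 rose and 1 fell at 3 h and 32 rose and 1 fell at 6 h, with a median log2 fold change of 0.24 at 6 h. Mrps27 reached 1.02 ± 0.09 at 6 h. Of 30 ribosome biogenesis genes, whose products make and fold ribosomal RNA, 16 rose and 1 fell at 3 h, with a median of 0.33. Among them Nop2, a methyltransferase of ribosomal RNA, rose by 0.87 ± 0.12 and Bysl, which matures the small subunit, by 1.00. At 6 h 4 of the 30 rose and 7 fell, and at 12 h 0 rose and 10 fell. Of 20 tested genes of the mTORC1 pathway and translation control, 2 rose and 7 fell at 3 h, with Sesn2, a leucine-sensing inhibitor of mTORC1, at -2.16 ± 0.19 and Flcn, a regulator of mTORC1 at the lysosome, at -1.57. Of 16 TOP-type translation factor genes, 2 rose and 4 fell at 3 h and 1 rose and 3 fell at 6 h, where Eif4b, a helper of the initiation helicase, had -0.68 ± 0.10. These lists have their background in the same 25.4% and 28.8% of all genes. Of 10 targets of p53, 1 rose and 2 fell at each of 3, 6 and 12 h.

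The 12 h libraries held less message for many ribosomal protein genes than the 3 h libraries. Over the 4 drinks and both strains 30 of 82 were lower and 1 higher (26.8% of all genes lower, 27.4% higher and 54.2% in either direction), and the median log2 fold change was -0.10, while that of all genes lay within 0.01 of 0. The 31 calls make 37.8% of the tested ribosomal protein genes, fewer than the 54.2% of all genes, and nearly all point to lower levels. Without the 2 libraries placed nearest to another time 29 were lower, and in the 94 libraries without the letter 17 were lower and 1 higher. Leaving out replicate 4 gave 18 calls in all.

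Rpl7l1 had the lowest, median and highest values of 62.6, 100 and 130 CPM in 40 libraries at 3 h and 47.7, 59.8 and 89.7 CPM in 38 at 12 h. Rpl7l1 was 0.68 ± 0.05 lower on the log2 scale (-0.68, adjusted p = 8.06e-23), in 38 of 38 libraries set against the 3 h mean of their strain and drink. Rpl8, a protein near the peptide-joining centre, had medians of 563 and 436 CPM and a log2 fold change of -0.33 ± 0.05 (adjusted p = 7.05e-08, 36 of 38 libraries). Ranges of both genes overlapped between the times. Rps10 had -0.27 ± 0.07 (adjusted p = 0.00122, 35 of 38) and Rps28 -0.27 ± 0.12 (adjusted p = 0.0367, 26 of 38). Both are small subunit proteins, and the call of Rps28 was lost in 7 of 14 alternatives, with an adjusted p of 0.463 without replicate 4. Rpl3l fell by 2.44 ± 0.32 on the log2 scale (adjusted p = 8.1e-11, 38 of 38), with medians of 0.811 and 0.167 CPM, while the muscle markers had medians of 91.8 and 1.98 CPM.

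By role, the stalk had 2 of 4 lower at 12 h (Rplp0 at -0.14 and Rplp2 at -0.25), and Rpl5 was lower at -0.18 while Rpl11 had -0.07 and was not called. Rps6 was lower at -0.15 (adjusted p = 0.0164). Of the 5 proteins at the message exit 3 were lower, and of 9 exit tunnel proteins none was (median log2 fold change 0.01). Rpl22l1 was the gene that was higher, at 0.24 ± 0.06 (adjusted p = 0.000858, 29 of 38 libraries). Its parent Rpl22 had 0.01. Fau and Rpl36al, ribosomal protein genes outside the naming rule, were both lower, Fau at -0.25 and Rpl36al at -0.14. Among biogenesis genes 26 of 30 were lower and 2 higher, Nop2 at -1.35, and of 76 mitochondrial ribosomal protein genes 32 were lower and 4 higher. Erythroid markers summed to medians of 539 CPM at 3 h and 304 CPM at 12 h, and their part in these differences was not tested.

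Sugar in the drink called at most 1 ribosomal protein gene in any comparison with water. At 3 h no gene was called for glucose (0.190% of all genes called), sucrose (2.92%) or fructose (6.71%). DESeq2 also called 0 in each, and at an unadjusted p under 0.05 in edgeR 0, 1 and 1 of 82 genes passed, against 5.32%, 13.2% and 17.6% of all genes. The medians were 0.17 for glucose, with 81 of 82 genes positive, -0.09 for sucrose and 0.06 for fructose. Fructose against glucose at 3 h called 0 as well (2.35% of all genes called), 2 at an unadjusted p under 0.05 (12.7% of all genes) and 0 in DESeq2, with a median of -0.11. At the same time 13 of 30 biogenesis genes were lower with fructose than with water.

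At 6 h most values lay below water for glucose, sucrose and fructose, as they already did for sucrose at 3 h. For glucose 0 genes were called (0.906% of all genes), with a median of -0.18 and 1 of 82 positive. At an unadjusted p under 0.05 in edgeR 19 of 82 were lower (23.2%, against 6.31% of all genes lower). Sucrose called 1 (1.14% of all genes), with a median of -0.14, and fructose 0 (1.23%), with a median of -0.11. At the unadjusted threshold sucrose had 11 lower (13.4%, against 7.82% of all genes) and fructose 6 (7.32%, against 5.57%). DESeq2 called 0 for glucose and fructose. These 3 comparisons share the same water libraries, which at 6 h held the highest C57BL6/J sum of 43097 CPM, so their directions are not separate measurements. The glucose libraries at 6 h held a low C57BL6/J sum of 20854 CPM, in replicate 3. In that library 6 exocrine pancreas markers summed to 1629 CPM, against a median of 1.72 CPM over all libraries. Leaving out 1 replicate number gave medians of -0.23 to -0.08 for glucose, with 0 calls. The part of other tissue in these differences was not tested. At 12 h 0 genes were called for glucose (0.0651% of all genes), sucrose and fructose (0.00592% each), with medians of -0.03, -0.16 and -0.08. At an unadjusted p under 0.05 the counts were 0, 5 and 1 (5.34%, 4.35% and 4.23% of all genes), and DESeq2 called 0 in each.

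The gene called for sucrose at 6 h was Rpl22l1. C57BL6/J on sucrose gave 45.5, 45.9, 52.0, 54.4 and 60.2 CPM, against 65.5, 66.9, 71.1, 72.3 and 94.3 CPM on water. BALB/c on sucrose gave 52.2, 56.3, 56.9, 59.7 and 71.8 CPM, against 71.5, 71.6, 71.7, 84.2 and 96.0 CPM on water. The C57BL6/J groups did not overlap, and in BALB/c 1 sucrose library reached into the water range. The log2 fold change was -0.47 ± 0.13 (adjusted p = 0.0392, 10 of 10 libraries), and the call was lost in 8 of 14 alternatives, with an adjusted p of up to 0.293. For glucose at 6 h Rpl22l1 had -0.41 (adjusted p = 0.095).

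Between the strains a few ribosomal protein genes differed by a wide margin. Over the 13 conditions of drink and time 38 of 82 genes were lower and 3 higher in BALB/c than in C57BL6/J (26.5% of all genes lower, 28.7% higher and 55.3% in either direction), with a median of -0.09, beside 0.01 over all genes. With total counts as the only scaling 26 were lower and 8 higher, and the median was -0.01 while that of all genes was 0.09. Without the 2 libraries placed nearest to another time 40 were lower and 3 higher. The 41 calls make 50% of the tested ribosomal protein genes, near the share of all genes. In 7 genes the ranges over all libraries of the strains did not overlap: Rpl21, Rpl26, Rpl29, Rpl30, Rplp0, Rps18 and Rps2. With Rpl35a, 8 genes had no overlap in any of the 13 conditions. The share of all tested genes without overlap between the strains was not counted, so these counts have no background beside them.

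**Figure D5:**
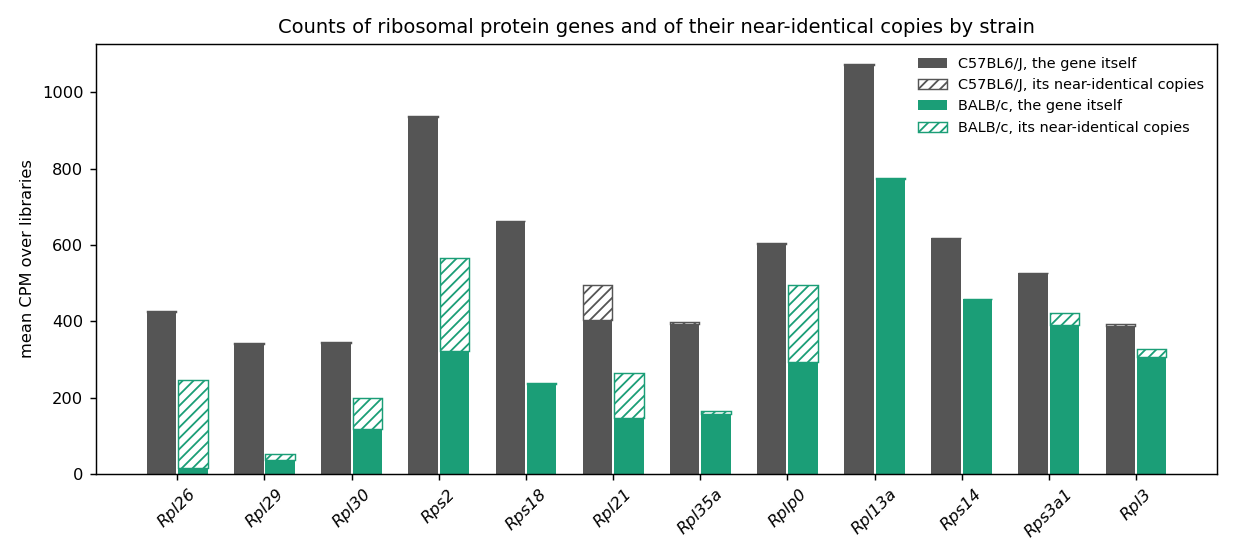
Mean CPM over the libraries of each strain for the 12 genes with copies that were lowest in BALB/c relative to C57BL6/J (filled bars), with the summed copies stacked on top (hatched bars). For Rpl26 the gene has 424 CPM in C57BL6/J against 14.6 CPM in BALB/c, and its copies 2.24 against 232 CPM.

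Rpl26, a protein at the tunnel exit, showed the widest gap. Its lowest, median and highest values were 214, 418 and 700 CPM in 65 C57BL6/J libraries and 4.78, 15.3 and 28.4 CPM in 63 BALB/c libraries. The log2 fold change was -4.88 ± 0.12 (adjusted p = 9.84e-66), with -5.36 to -4.42 over the 13 conditions. Rpl29, a small basic protein on the subunit's surface, had 232, 342 and 465 CPM against 25.3, 35 and 49.0 CPM. Its log2 fold change was -3.25 ± 0.04 (adjusted p = 4.68e-98), with -3.43 to -3.04 over conditions. For both genes every BALB/c library lay below every C57BL6/J library.

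A second set lay between 1 and 1.6 log2 units lower in BALB/c. Rps2, at the entrance for the message, had 616, 927 and 1333 CPM in C57BL6/J against 204, 312 and 533 CPM in BALB/c, a log2 fold change of -1.55 ± 0.04 (adjusted p = 3.28e-59). Rpl30 had 193, 334 and 531 CPM against 56.1, 109 and 187 CPM, a log2 fold change of -1.55 ± 0.06 (adjusted p = 3.67e-48). Rplp0, the base of the stalk, had 444, 601 and 829 CPM against 191, 292 and 372 CPM, a log2 fold change of -1.04 ± 0.03 (adjusted p = 3.15e-56). None of these 3 genes had overlapping ranges. Rps18 (-1.49), Rpl21 (-1.46), Rpl35a (-1.33) and Rps4l (-0.79) were also lower in 63 of 63 BALB/c libraries against the C57BL6/J mean of their condition.

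The 3 genes higher in BALB/c were Rps29, Rps27 and Rpl22l1. Rps29, a small zinc-binding protein of the small subunit, had 102, 433 and 696 CPM in C57BL6/J against 223, 673 and 1285 CPM in BALB/c, a log2 fold change of 0.67 ± 0.10 (adjusted p = 1.31e-09, 50 of 63 libraries). Rps27 had 164, 372 and 569 CPM against 258, 452 and 608 CPM, a log2 fold change of 0.28 ± 0.05 (adjusted p = 1.72e-06). For Rpl22l1 it was 0.25 ± 0.05 (adjusted p = 6.27e-06). Ranges of all 3 overlapped. Rps27l, the paralog of Rps27, was lower in BALB/c at -0.14, and Rpl22 at -0.10.

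Ribosomal protein genes have many near-identical copies, most of them processed pseudogenes, to which their reads can align. A search of annotated transcripts for matches of at least 95% identity over at least 80% of the coding sequence found 413 copies of 73 of the 84 genes. Of the 201 copies tested, 46 were higher and 19 lower in BALB/c. Both are smaller shares than among all genes, with 28.7% higher and 26.5% lower. For 9 genes the summed copies were higher in BALB/c by at least 10 CPM. Gm15772, a copy of Rpl26, had 0.266 to 3.36 CPM in C57BL6/J and 96.0 to 377 CPM in BALB/c, with no overlap, a log2 fold change of 7.45 ± 0.13 (adjusted p = 1.12e-79). The summed copies of Rpl26 had a mean of 2.24 CPM in C57BL6/J against 232 CPM in BALB/c. Those of Rps2 went from 2.84 to 246 CPM, of Rplp0 from 1.77 to 201 CPM, of Rpl30 from 3.97 to 82.9 CPM and of Rpl29 from 1.90 to 17.3 CPM. For each of these 5 genes the copies were higher in the strain in which the gene was lower. Copies of Rps18 had 1.26 and 2.89 CPM and those of Rpl35a 4.83 and 8.67 CPM, far less than the genes' differences. In CPM, the copies of Rpl29 likewise differed by far less than Rpl29 itself.

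The gene and its copy differ at few bases in GRCm38, a build made from C57BL6/J. The 60-base stretches below are coding sequence around the first differing base for Rpl26 and Rpl30, and around a group of them for Rplp0, with the differing bases in capitals. Rpl26 lies at chr11:68901583-68906989 on the plus strand and Gm15772 at chr5:3236431-3236868 on the plus strand. Rpl30 lies at chr15:34440505-34443640 on the minus strand and Gm12191 at chr11:49678710-49679057 on the minus strand. Rplp0 lies at chr5:115559467-115563727 on the plus strand and Gm8730 at chr8:102864779-102865853 on the minus strand.
Rpl26, coding bases 147 to 206: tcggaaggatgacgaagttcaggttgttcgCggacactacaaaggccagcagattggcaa
Gm15772: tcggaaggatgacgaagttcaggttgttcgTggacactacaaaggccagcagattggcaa
Rpl30, coding bases 66 to 125: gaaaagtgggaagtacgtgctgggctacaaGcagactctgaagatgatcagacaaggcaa
Gm12191: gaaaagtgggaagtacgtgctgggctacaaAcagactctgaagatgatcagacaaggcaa
Rplp0, coding bases 388 to 447: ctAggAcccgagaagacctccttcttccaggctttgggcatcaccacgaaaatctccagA
Gm8730: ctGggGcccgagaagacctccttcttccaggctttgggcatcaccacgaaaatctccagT
Counted from the first coding base, Gm15772 differs from Rpl26 at 2 of 438 bases (C177T and T288C), Gm12191 from Rpl30 at 1 of 348 (G96A), and Gm8730 from Rplp0 at 12 of 954. Gm12191 was 4.89 ± 0.08 higher in BALB/c on the log2 scale (adjusted p = 7.45e-82) and Gm8730 6.97 ± 0.11 higher. Gm6472, a copy that differs from Rps7 at 3 of 585 bases, was 3.81 higher, and Rps3a2, which differs from Rps3a1 at 4 of 792, was 4.43 higher.

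When each gene was summed with its copies before the test, the strain differences became smaller, by amounts that varied between genes. The log2 fold change went from -4.88 to -0.80 for Rpl26, from -1.55 to -0.80 for Rpl30, from -1.55 to -0.73 for Rps2, from -1.46 to -0.91 for Rpl21 and from -1.04 to -0.30 for Rplp0. For Rpl29 it went from -3.25 to -2.69, for Rps18 from -1.49 to -1.48 and for Rpl35a from -1.33 to -1.28. All 41 genes called between strains were called again, 38 lower and 3 higher. Whether reads of a gene were assigned to its copy in BALB/c was not tested.

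Among related lists, 48 of 76 mitochondrial ribosomal protein genes were higher in BALB/c and 8 lower, with a median of 0.14, against a median of -0.09 for the cytosolic ones. Of 16 TOP-type translation factors 1 was higher and 10 lower, and 5 of 5 tested non-coding host genes of small nucleolar RNAs were lower, Gas5 at -0.88. Of 9 exit tunnel genes 5 were lower, and of the 4 stalk genes 2 were, Rplp0 and Rpl12 (-0.11). Rpl5 was lower at -0.09 (adjusted p = 0.0349), Rps27a at -0.21 and Rps6 not called at -0.08 (adjusted p = 0.128).

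The response to feeding itself was not shown to differ between the strains for any ribosomal protein gene. The interaction of strain with feeding on water called 0 of 82 genes at 3 h (0.338% of all genes called), 6 h (0.302%) and 12 h (0.278%), and 0 in DESeq2 at each time. At an unadjusted p under 0.05 there were 1, 0 and 0 genes, against 10.1%, 8.17% and 8.08% of all genes. The median interaction, the BALB/c change less the C57BL6/J change, was -0.33 at 3 h, -0.27 at 6 h and -0.16 at 12 h on the log2 scale. The gene with the smallest p at 3 h was Rpl8, with -0.46 (adjusted p = 0.421). At 6 h Rps27 had -0.48 (adjusted p = 0.676) and at 12 h Rps29 -0.74 (adjusted p = 0.774).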

How the data were processed

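Liver RNA libraries, 65 of C57BL6/J and 63 of BALB/c, were analysed from read counts per gene, deposited by the authors without normalization, and from FPKM values, which the authors deposited for the same libraries and which were used for levels between genes only. CASAVA, STAR 2.5, HTSeq 0.6.1, DESeq2 and mm10 are named per the submitters' processing notes, without roles. The number of columns of per-sample values left unused was 0. Of 35275 genes 8695 had no read.

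Counts were tested in edgeR 4.0.16 (R 4.3.3) with filterByExpr over 26 groups, TMM scaling, a robust quasi-likelihood test of 1 model over all libraries, and Benjamini-Hochberg adjustment over 16886 genes at 0.05. CPM used TMM-scaled sizes. Total counts of 18541545 to 43118895 set the precision, and counting intervals would cover counting error only. No pair among 252 within groups agreed within sampling noise (lowest chi-square per degree of freedom 19.17). Copies were found with blastn 2.17.0 in GENCODE transcripts of GRCm38. The scripts were tested on simulated data.

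Samples were grouped by strain, drink and time from the labels. The members and lists were chosen with earlier results of these data known. Named genes are a panel by role (stalk, Rpl5 and Rpl11, Rps6, Rps27a, paralogs and their parents), per comparison the called genes of largest fold change (up to 5 at each end and 10 by absolute size for strain), up to 3 by smallest p where none was called, up to 3 per related list, and the 10 highest and 10 lowest by FPKM. Some that the rule allows are given only within counts. Gm28037 and the copies were named after their values were seen. Alternatives were DESeq2 1.42.0, RLE factors, total counts, no filter, a replicate block, the letter a as a factor or left out, and leaving out each replicate number, and, added after seeing the data, members summed with copies and leaving out 2 libraries.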

Additional observations from a re-analysis of the deposited data

Results flagged for a closer look

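In 90 sets of values from single groups, 3 values stood apart from the rest of their group, each by a gap that exceeds Dixon's critical value for the group's size. Chance alone gives such a gap in about 1 in 20 sets. The summed CPM of the ribosomal protein genes in C57BL6/J on water at 6 h was 43097 in replicate 5, against 35337 to 37072 in the other libraries. The same library held the highest Rpl22l1, at 94.3 CPM against 65.5 to 72.3 CPM. Rpl7l1 in C57BL6/J on water at 3 h was 62.6 CPM in replicate 4, against 107 to 121 CPM in the others.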

How the results depend on the processing

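Counts of called ribosomal protein genes were recomputed for 18 comparisons, and 0 values reversed. Of the 22 counts that moved by over 1.5 times, those on water at 3 h (3 as reported) were 1 without the filter on low counts and 1 in libraries without the letter a, with 1 to 2 when a replicate number was left out. At 6 h (13) leaving out a replicate gave 3 to 16 calls. At 12 h (1) total counts as the only scaling, which moved the all-gene median from -0.01 to 0.10, gave 3, the letter as a factor 2 and summing with copies 2. For sucrose at 6 h (1) no filter, RLE factors, total counts and the libraries without the letter gave 0, DESeq2 and the letter as a factor 2, and leaving out a replicate 0 to 1. For 12 h against 3 h (31) the libraries without the letter gave 18 and leaving out a replicate 18 to 30. For strain (41) it gave 30 to 44. With the replicate number as a block the counts were 3 on water at 3 h, 15 at 6 h, 2 for sucrose at 6 h, 34 for 12 h against 3 h and 42 for strain. The labels do not say what a replicate number shares, but the library numbers in the titles are grouped by it. Not every pair of libraries with the same number correlated above 0.1 (55.3% did, lowest -0.60), and the main model did not use the numbers for pairing. The mean correlation was nevertheless 0.11 within a number against -0.03 between numbers, and 81 of the 65 C57BL6/J and 63 BALB/c libraries lay closest to their own number, a hint from the data and not the design. For 26 single-gene results, those of largest fold change per comparison, 331 recomputations kept the call and 33 lost it, and other named genes were not recomputed singly. The causes were not tested. Depth limits Rpl3l, Rpl24, Rpl10l and Rpl39l most.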
